A study of Mus musculus with 16 samples.

Results

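Xenobiotic and aldehyde detoxification enzymes were described in mouse esophagus across genotype and allergen treatment. Members were protein-coding genes named as glutathione S-transferases (classes Gsta, Gstk, Gstm, Gsto, Gstp and Gstt), microsomal glutathione transferases (Mgst), cytochromes P450 of families 1 to 4 (Cyp), aldehyde dehydrogenases (Aldh), UDP-glucuronosyltransferases (Ugt1 and Ugt2), quinone reductases (Nqo) or epoxide hydrolases (Ephx), with a normalized count of at least 5 in at least 4 of 16 libraries. Of 41411 genes in the table, 151 had such a name and 73 of these were members. The level rule used only how high a gene was in any 4 libraries and no difference between groups. It kept 58 members at 5 or more in all 16 libraries, and 0 members reached 5 in 1 group only. No WT OXA library reached 5 for Cyp2a5, Cyp2b19 and Gstm3, no WT vehicle library did for Cyp2ab1, and no KO vehicle library did for Cyp2r1. Just inside the rule lay Cyp2r1 and Cyp4v3, with 8 libraries at 5 or more each, and just outside it Cyp2c70, with 3 such libraries. Over the 16 libraries Cyp2r1 ranged from 0 to 17.8 and Cyp2c70 from 0 to 46.4. Of the 78 genes left out, 19 had no read in any library.

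These enzymes work in successive steps, as textbook background. Cytochromes P450 add oxygen to drugs, pollutants, steroids and fatty acids, and epoxide hydrolases, aldehyde dehydrogenases and quinone reductases disarm the reactive products. Transferases then couple glutathione or glucuronic acid to them, which makes them soluble for export. Many of the genes are targets of NRF2, a transcription factor that responds to electrophiles, or of the aryl hydrocarbon receptor. Several aldehyde dehydrogenases also make retinoic acid, which restrains squamous differentiation. In the esophagus several are known from the stratified squamous lining, which meets food and smoke.

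The samples were whole esophagus of C57BL/6 mice, 4 libraries in each of 4 groups, sequenced by CEL-Seq, which reads tags at the 3′ ends of transcripts. WT OXA mice were wild type and underwent a model of eosinophilic esophagitis with oxazolone (OXA), a hapten that provokes contact allergy; WT vehicle mice were wild type and received vehicle. KO OXA and KO vehicle mice received the same treatments and were Il13ra1-/-, a deletion of the receptor chain that pairs with the IL-4 receptor alpha chain to bind IL-13. No age, sex, dose or day is in the labels, nor whether the samples of a group came from separate animals, so p-values measure only the spread between these samples.

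Sequences upstream of transcription starts are shown because many members fell together in WT. RefSeq's promoter table (GRCm38.p6) matched 59 of the 73 members. Of these, 11 (18.6%) held the core of the antioxidant response element, TGACNNNGC on either strand, within 250 bases before to 50 bases after a start, against 14.0% of all 27025 genes in that table. The share was 6 of 31 members lower under OXA in WT (19.4%), 1 of 7 higher (14.3%) and 4 of 21 without a call (19.0%). Capitals mark that core in the 250 bases before the start, printed 5′ to 3′ on the gene's strand, with the first transcribed base counted as position 1 and the base before it as -1. Cyp2f2 (chr7:27119705-27119954, plus strand) and Gstm2 (chr3:107986421-107986670, minus strand) fell under OXA in WT and have no capitals. Gsta3 (chr1:21240335-21240584, plus strand, core from -121) and Gstm5 (chr3:107895604-107895853, plus strand, core from -42) also fell and hold it. Cyp4f18 (chr8:72009627-72009876, minus strand, core from -140) rose and holds it too.
Cyp2f2: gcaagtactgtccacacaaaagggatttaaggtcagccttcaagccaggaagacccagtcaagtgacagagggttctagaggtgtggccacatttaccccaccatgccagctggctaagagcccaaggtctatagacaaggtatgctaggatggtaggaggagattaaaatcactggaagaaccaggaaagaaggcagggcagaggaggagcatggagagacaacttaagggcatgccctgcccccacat
Gstm2: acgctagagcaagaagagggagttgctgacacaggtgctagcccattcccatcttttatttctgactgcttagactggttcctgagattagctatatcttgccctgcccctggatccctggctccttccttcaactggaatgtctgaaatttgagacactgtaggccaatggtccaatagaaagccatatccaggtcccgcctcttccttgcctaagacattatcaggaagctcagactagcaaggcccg
Gsta3: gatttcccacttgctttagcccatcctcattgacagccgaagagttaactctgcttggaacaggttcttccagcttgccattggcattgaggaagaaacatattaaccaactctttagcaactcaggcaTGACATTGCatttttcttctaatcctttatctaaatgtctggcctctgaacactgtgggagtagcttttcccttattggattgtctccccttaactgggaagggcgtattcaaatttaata
Gstm5: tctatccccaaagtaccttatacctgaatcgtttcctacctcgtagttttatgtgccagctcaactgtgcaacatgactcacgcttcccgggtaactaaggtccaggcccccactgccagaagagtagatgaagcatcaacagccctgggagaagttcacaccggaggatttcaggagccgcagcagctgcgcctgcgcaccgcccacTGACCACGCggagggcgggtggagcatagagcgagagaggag
Cyp4f18: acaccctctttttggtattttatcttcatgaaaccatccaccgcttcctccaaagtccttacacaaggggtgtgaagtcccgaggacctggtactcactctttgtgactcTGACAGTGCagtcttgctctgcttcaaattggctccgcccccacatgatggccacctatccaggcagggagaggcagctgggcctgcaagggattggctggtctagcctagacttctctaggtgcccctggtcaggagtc
The core of the xenobiotic response element, GCGTG on either strand, was in 22 of 59 members (37.3%) and in 35.2% of all genes. It was in 7 of 31 members that fell (22.6%), 5 of 7 that rose (71.4%) and 10 of 21 without a call (47.6%). The palindrome TTCNNNNGAA, the letters of a STAT6 element, was in 4 of 59 members (6.78%) and in 8.01% of all genes. In Gstm5 the antioxidant core overlaps a GCGTG on the other strand. A match describes letters and not a bound site, and its absence says only that the letters are not in this window.

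Depth, recovered as whole reads from the values, was 20174102 to 27342877 in WT OXA, 5611227 to 9551179 in WT vehicle, 8823796 to 15202957 in KO OXA and 7913040 to 16528455 in KO vehicle (reads per library). It moved with the groups, and so did the share of mitochondrial rRNA, at 0.453% in WT OXA, 1.34% in WT vehicle, 0.776% in KO OXA and 1.14% in KO vehicle. Il13ra1 itself had normalized counts of 584 to 874 in WT OXA, 134 to 226 in WT vehicle, 44.0 to 174 in KO OXA and 31.2 to 64.7 in KO vehicle; whether these 3′ tags lie in the deleted part is not given in the sources used here. Markers of differentiated squamous epithelium (Krt4, Krt13, Lor and others, 12 of 14 tested) were abundant as a sum in every library, while 2 of the 14 were at 0 in each group. Krt4, at 2.93% to 13.2% of the reads of a library, made up most of that sum. The markers' summed value was 490794 to 792272 in WT OXA and 1444952 to 2119549 in WT vehicle. It was 1458112 to 3058519 in KO OXA and 1591936 to 1886553 in KO vehicle. Under OXA in WT 9 of the 12 were lower (limma), beside 16 percent of all genes, with a median log2 fold change of -1.70. In KO limma called 0 (unadjusted 3, edgeR 0, DESeq2 3), beside 1.90 percent of all genes. The OXA effect in KO minus that in WT was called positive for 8, beside 10.1 percent of all genes. Under OXA 10 were higher in KO than in WT, beside 14.6 percent. The part of these markers in the members' changes was not tested.

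WT vehicle replicate 2 and KO OXA replicate 4 stood apart. Albumin (Alb), made by hepatocytes, was at 1292 in WT vehicle replicate 2 and at most at 12.6 in the other 15 libraries, with Fgb at 537.8 there against at most 5.47 elsewhere. The same library held 241 reads of 25 enzymes that the level rule left out. KO OXA replicate 4 held 395 reads of 46 left-out enzymes and had the most genes above 0, 23730 against 16633 to 21763 in the other libraries. Calls of members that differed without either library are named beside the results.

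In WT esophagus many detoxification enzymes were lower under OXA. Of the 73 members 37 were lower and 10 were higher (limma, adjusted p under 0.05), a share of 64.4% called against 34.0 percent of the 16748 genes tested. Lower calls made up 50.7% of members against 16 percent of all genes, and higher calls 13.7% against 18.0 percent. The median log2 fold change was -0.78 over members and 0.10 over all genes tested. Summed over members, the values made up 0.269% to 0.281% of all values in WT OXA, 1.22% to 1.48% in WT vehicle, 0.731% to 1.13% in KO OXA and 1.08% to 1.26% in KO vehicle. WT OXA lay below the 3 other groups with no overlap. In WT vehicle most of this sum came from Aldh3a1, Cyp2f2, Gsta4 and Gstm1, so it does not describe the typical member. In whole tissue, fewer cells of a type and less RNA per cell cannot be told apart. Without WT vehicle replicate 2, 33 members were lower and 9 higher, the calls of Aldh3b1, Cyp2b19, Cyp2c66, Cyp4f13 and Mgst1 being lost. With both libraries that stood apart left out, 35 were lower and 9 higher. Scaling to equal library totals moved the median fold change of all genes in WT by 0.31 and gave 30 lower and 10 higher members.

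**Figure D1:**
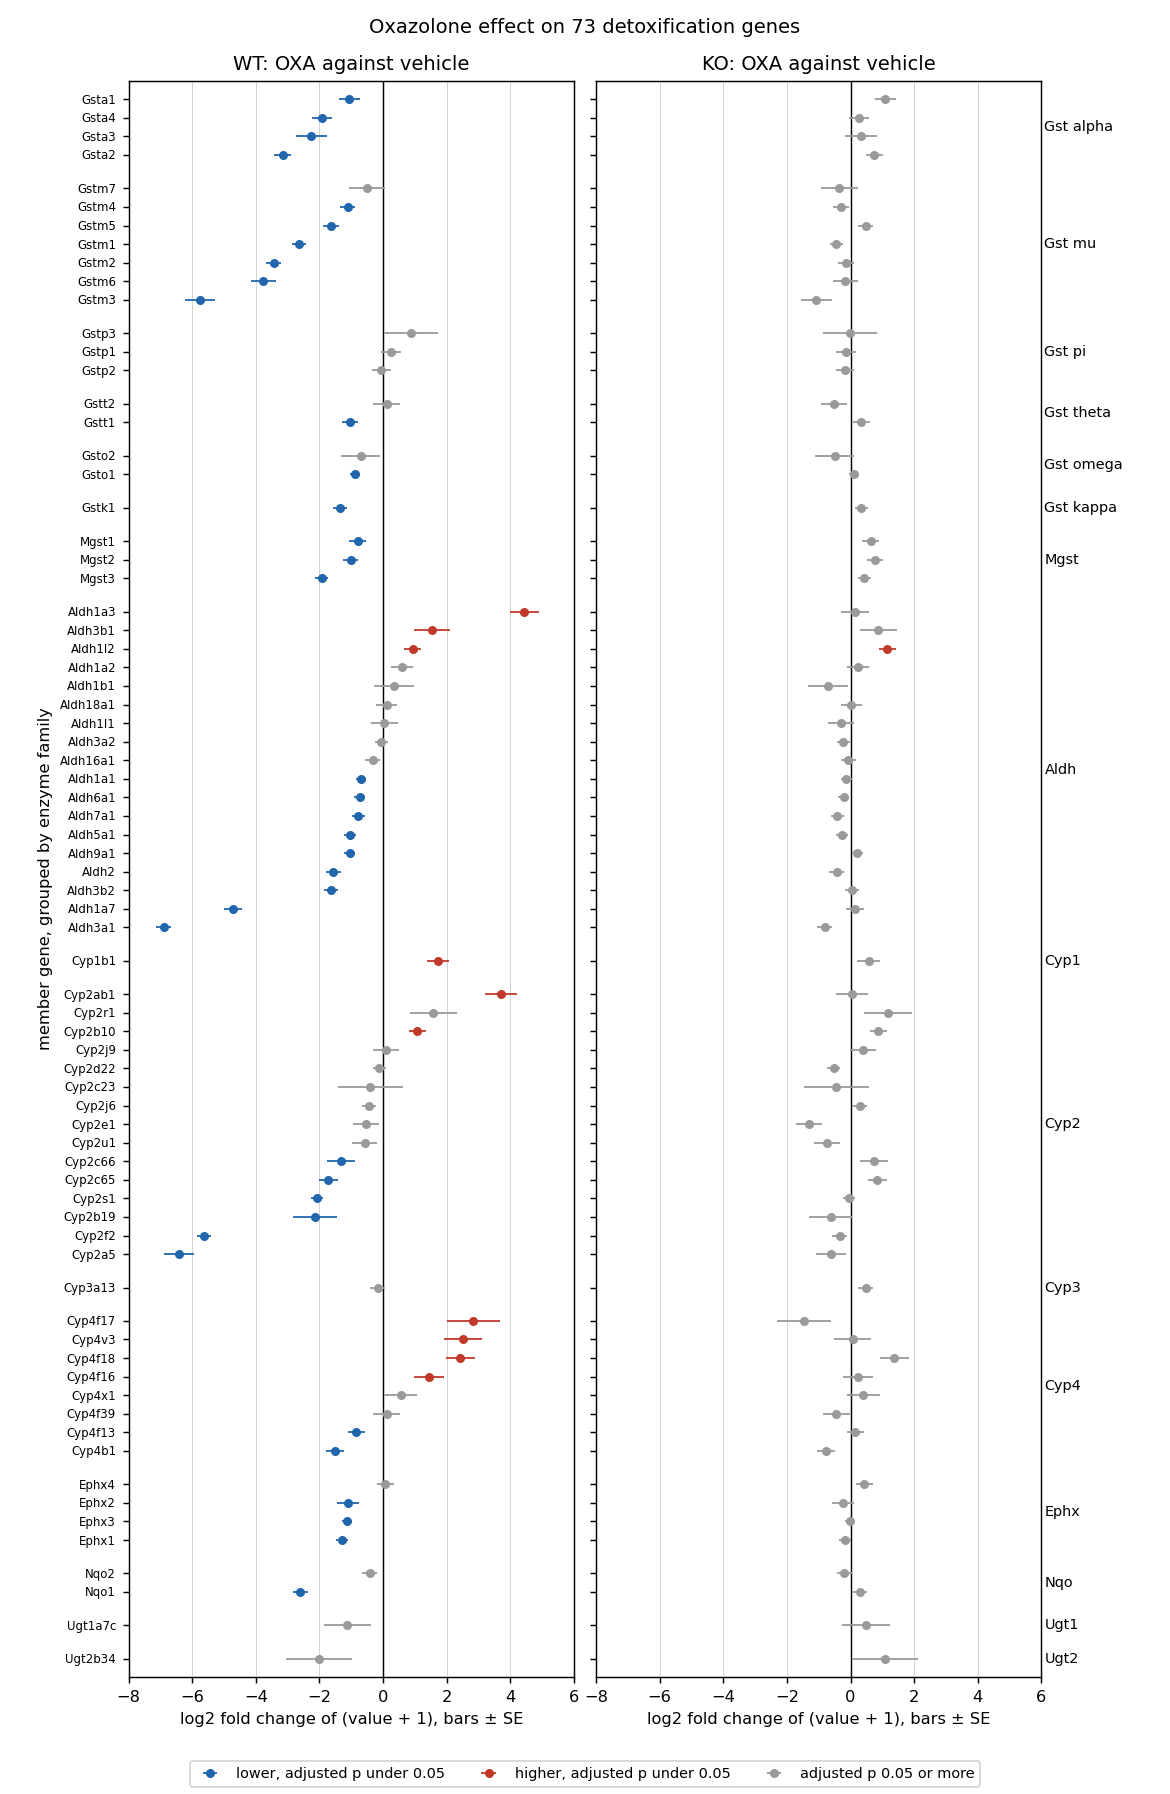
Log2 fold changes of the 73 members under OXA against vehicle (x axis, log2 of value + 1, bars ± SE) in WT (left) and KO (right), one row per member grouped by family. In WT 37 members lie to the left as lower calls and 10 to the right as higher calls, while in KO 1 member, Aldh1l2, is called.

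Cytosolic glutathione S-transferases of the alpha and mu classes fell in WT. All 4 alpha members were lower, as were 6 of 7 mu members, 1 of 2 theta, 1 of 2 omega and the single kappa member, while none of the 3 pi members passed. Alpha enzymes conjugate electrophiles and reduce lipid hydroperoxides. Gsta2 in WT stood at 44.6, 67.2, 73.8 and 87.5 under OXA, against 599, 753, 551 and 528 under vehicle. Gsta2 fell by 3.16 ± 0.26 on the log2 scale (adjusted p = 3.79e-08), and the WT OXA libraries all lay below the WT vehicle libraries (ENSMUSG00000057933, chromosome 9, 78331018 to 78355788, GRCm38). Gsta2 in KO stood at 1416, 947, 1001 and 468 under OXA, against 489, 518, 445 and 689 under vehicle (0.75 ± 0.26, adjusted p = 0.187). All but 1 of the KO OXA libraries lay above every KO vehicle library and replicate 4 lay among them. Without KO OXA replicate 4, Gsta2 passed in KO (adjusted p = 0.0071).

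Gsta4 couples glutathione to hydroxynonenal, an aldehyde of lipid peroxidation. Gsta4 in WT stood at 5111, 6956, 5957 and 8464 under OXA, against 19699, 29118, 25293 and 25395 under vehicle. Gsta4 fell by 1.92 ± 0.30 on the log2 scale (adjusted p = 8.46e-05), with no overlap of the WT groups (ENSMUSG00000032348, chromosome 9, 78182774 to 78209349). Gsta4 in KO stood at 57558, 19059, 20942 and 20538 under OXA, against 16247, 20752, 19751 and 34046 under vehicle (0.26 ± 0.30, adjusted p = 0.752). KO OXA replicate 1 stood far above the other libraries of its group, which lay within the KO vehicle range. Gsta3 in WT stood at 7.98, 5.64, 12.6 and 11.3 under OXA, against 23.4, 55.6, 58.4 and 62.4 under vehicle. Gsta3 fell by 2.26 ± 0.50 on the log2 scale (adjusted p = 0.00162), again without overlap in WT. Gsta3 in KO stood at 62.3, 34.5, 43.3 and 18.1 under OXA, against 12.7, 47.5, 19.0 and 57.5 under vehicle (0.32 ± 0.50, adjusted p = 0.823), and these groups overlapped. Gsta1 fell too (-1.06 ± 0.34, adjusted p = 0.0212), a call that was lost on omitting WT OXA replicate 1 or 3 or WT vehicle replicate 1 or 4 (adjusted p up to 0.066) and with equal library totals (adjusted p = 0.0719). Gsta1 and Gsta2 share a run of 88 bases in the last 300 bases of their transcripts, so their tags can be split between them.

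Mu class enzymes, which conjugate epoxides and quinones, lie side by side on chromosome 3. Gstm2 in WT stood at 929, 1027, 975 and 799 under OXA, against 9364, 10075, 10348 and 10682 under vehicle. Gstm2 fell by 3.44 ± 0.25 on the log2 scale (adjusted p = 3.55e-09) and its WT groups lay far apart (ENSMUSG00000040562, chromosome 3, 107981702 to 107986453). Gstm2 in KO stood at 15791, 4333, 7766 and 8541 under OXA, against 8737, 8802, 9016 and 9956 under vehicle (-0.15 ± 0.25, adjusted p = 0.835). KO OXA replicate 1 was the highest and replicate 2 the lowest of the 8 KO libraries. Gstm1 in WT stood at 4309, 4567, 2993 and 2828 under OXA, against 20759, 20247, 22489 and 26674 under vehicle. Gstm1 fell by 2.64 ± 0.21 on the log2 scale (adjusted p = 1.52e-08) with all WT OXA libraries lower (ENSMUSG00000058135, chromosome 3, 108012255 to 108017973). Gstm1 in KO stood at 12058, 7772, 13982 and 13677 under OXA, against 15317, 14494, 18860.2 and 14803 under vehicle (-0.45 ± 0.21, adjusted p = 0.336), and although the KO OXA libraries all lay lower the test was not passed. Gstm3 in WT stood at 4.35, 0, 0.39 and 4.86 under OXA, against 167, 176, 169.7 and 71.3 under vehicle. Gstm3 fell by 5.75 ± 0.48 on the log2 scale (adjusted p = 3.44e-08); its WT OXA values were at or near 0 (ENSMUSG00000004038, chromosome 3, 107963696 to 107969283). Gstm3 in KO stood at 110.0, 70.2, 156 and 140.2 under OXA, against 277, 242, 226 and 223 under vehicle (-1.07 ± 0.48, adjusted p = 0.312), the KO groups lying apart without a call. Of the other 4 mu members, Gstm6 (-3.77 ± 0.39), Gstm5 (-1.64 ± 0.24) and Gstm4 (-1.12 ± 0.25) fell in WT, and Gstm7 stood at -0.51 ± 0.58, adjusted p = 0.536.

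Theta, omega and kappa members each had 1 gene lower in WT. Gstt1, a theta enzyme acting on halogenated alkanes, stood in WT at 137, 129, 113 and 89.6 under OXA, against 235, 272, 193 and 261 under vehicle. Gstt1 fell by 1.03 ± 0.26 on the log2 scale (adjusted p = 0.00414) without overlap. Gstt1 in KO stood at 350.2, 162, 197 and 146 under OXA, against 155, 117, 149 and 231 under vehicle (0.34 ± 0.26, adjusted p = 0.595), with overlap. Gsto1, a thioltransferase that also reduces dehydroascorbate, stood in WT at 3682, 3939, 4959 and 4837 under OXA, against 7726, 8189, 7699 and 8029.6 under vehicle. Gsto1 fell by 0.87 ± 0.16 on the log2 scale (adjusted p = 0.000387), every WT OXA library being lower. Gsto1 in KO stood at 9505, 5827, 8209 and 7308 under OXA, against 6659, 6244, 7924 and 7543 under vehicle (0.10 ± 0.16, adjusted p = 0.825), and the ranges overlapped. Gstk1, the kappa enzyme of mitochondria and peroxisomes, stood in WT at 85.7, 60.5, 66.7 and 84.2 under OXA, against 213, 187, 161 and 201 under vehicle. Gstk1 fell by 1.35 ± 0.21 on the log2 scale (adjusted p = 6.37e-05), its WT groups lying apart. Gstk1 in KO stood at 244, 187, 191 and 128 under OXA, against 123, 148, 146 and 162 under vehicle (0.34 ± 0.21, adjusted p = 0.501). KO OXA replicate 4 lay within the Gstk1 range of KO vehicle and the other KO OXA libraries above it.

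Neither Gstt2 nor Gsto2 passed. Gstt2 in WT stood at 29.8, 17.96, 26.7 and 32.9 under OXA, against 23.4, 30.9, 16.4 and 29.0 under vehicle (0.11 ± 0.41, adjusted p = 0.867). Gstt2 in KO stood at 20.2, 33.3, 9.9 and 10.2 under OXA, against 20.5, 20.7, 20.5 and 36.1 under vehicle (-0.52 ± 0.41, adjusted p = 0.619). Both pairs overlapped, as did those of Gsto2. Gsto2 in WT stood at 4.72, 3.08, 10.2 and 10.3 under OXA, against 8.26, 23.2, 10.9 and 6.69 under vehicle (-0.70 ± 0.62, adjusted p = 0.412). Gsto2 in KO stood at 5.5, 23.8, 12.4 and 27.6 under OXA, against 37.0, 6.04, 25.1 and 34.5 under vehicle (-0.50 ± 0.62, adjusted p = 0.772).

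Pi class enzymes, the main transferases of many epithelia, did not pass in either genotype: 0 of 3 were called by limma, by edgeR and by DESeq2, and 0 had an unadjusted p under 0.05. Gstp1 in WT stood at 44.3, 50.8, 50.6 and 46.4 under OXA, against 42.7, 52.5, 29.2 and 40.1 under vehicle (0.25 ± 0.31, adjusted p = 0.581). Gstp2 in WT stood at 76.2, 71.8, 55.7 and 55.6 under OXA, against 63.3, 57.2, 71.2 and 75.8 under vehicle (-0.05 ± 0.29, adjusted p = 0.915). Their WT ranges overlapped. Gstp1 in KO stood at 44.0, 26.2, 27.2 and 48.9 under OXA, against 31.2, 29.3, 44.1 and 55.8 under vehicle (-0.13 ± 0.31, adjusted p = 0.895). Gstp2 in KO stood at 31.2, 44.1, 63.1 and 89.8 under OXA, against 50.7, 62.1, 73.8 and 54.2 under vehicle (-0.17 ± 0.29, adjusted p = 0.849). These ranges overlapped as well. The last 300 bases of Gstp1 and Gstp2 transcripts are identical, so the split of tags between both genes is uncertain. As for Ugt1a genes, it is unknown whether tags matching both were counted at all. Low counts of Gstp1 and Gstp2 therefore need not mean low expression. The lack of a call for either gene does not show that its level was unchanged. Gstp3 in WT stood at 19.6, 9.75, 20.4 and 18.9 under OXA, against 15.2, 13.9, 1.82 and 11.1 under vehicle (0.88 ± 0.84, adjusted p = 0.454). Gstp3 in KO stood at 22.00, 9.53, 0 and 33.9 under OXA, against 4.87, 6.04, 11.4 and 16.4 under vehicle (-0.02 ± 0.84, adjusted p = 0.993), the values of KO OXA spanning those of KO vehicle.

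All 3 microsomal glutathione transferases, membrane enzymes that act on lipid hydroperoxides, fell in WT. Mgst3 in WT stood at 474, 438, 454 and 419.6 under OXA, against 1601, 1748, 1784 and 1678 under vehicle. Mgst3 fell by 1.93 ± 0.21 on the log2 scale (adjusted p = 1.28e-06), with narrow and separate ranges (ENSMUSG00000026688, chromosome 1, 167371966 to 167393841). Mgst3 in KO stood at 4184, 1738, 2659 and 1630.1 under OXA, against 1715, 1753, 1523 and 2063 under vehicle (0.43 ± 0.21, adjusted p = 0.356). The KO ranges overlapped. Mgst2, the relative that can make leukotriene C in many tissues, stood in WT at 417, 580.4, 587 and 665 under OXA, against 1086, 1346, 982 and 1123 under vehicle. Mgst2 fell by 1.02 ± 0.25 on the log2 scale (adjusted p = 0.00346) without overlap. Mgst2 in KO stood at 3055, 2009, 1577 and 968 under OXA, against 898, 1074, 879.6 and 1277 under vehicle (0.78 ± 0.25, adjusted p = 0.135). KO OXA replicate 4 lay among the KO vehicle libraries and the other KO OXA libraries above them. Mgst1 in WT stood at 382, 425, 505 and 627 under OXA, against 639, 1018, 805 and 891 under vehicle. Mgst1 fell by 0.79 ± 0.27 on the log2 scale (adjusted p = 0.0264), a call that was lost on omitting WT OXA replicate 1 or 2 or WT vehicle replicate 2 or 4 (adjusted p up to 0.0788), with equal library totals (adjusted p = 0.118) and with no filter (adjusted p = 0.0527). Mgst1 in KO stood at 1599, 1200.2, 1000.1 and 513 under OXA, against 560.5, 519.5, 646 and 881 under vehicle (0.64 ± 0.27, adjusted p = 0.272). Without KO OXA replicate 4 both Mgst1 (adjusted p = 0.0116) and Mgst2 (adjusted p = 0.00481) passed as higher in KO.

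**Figure D2:**
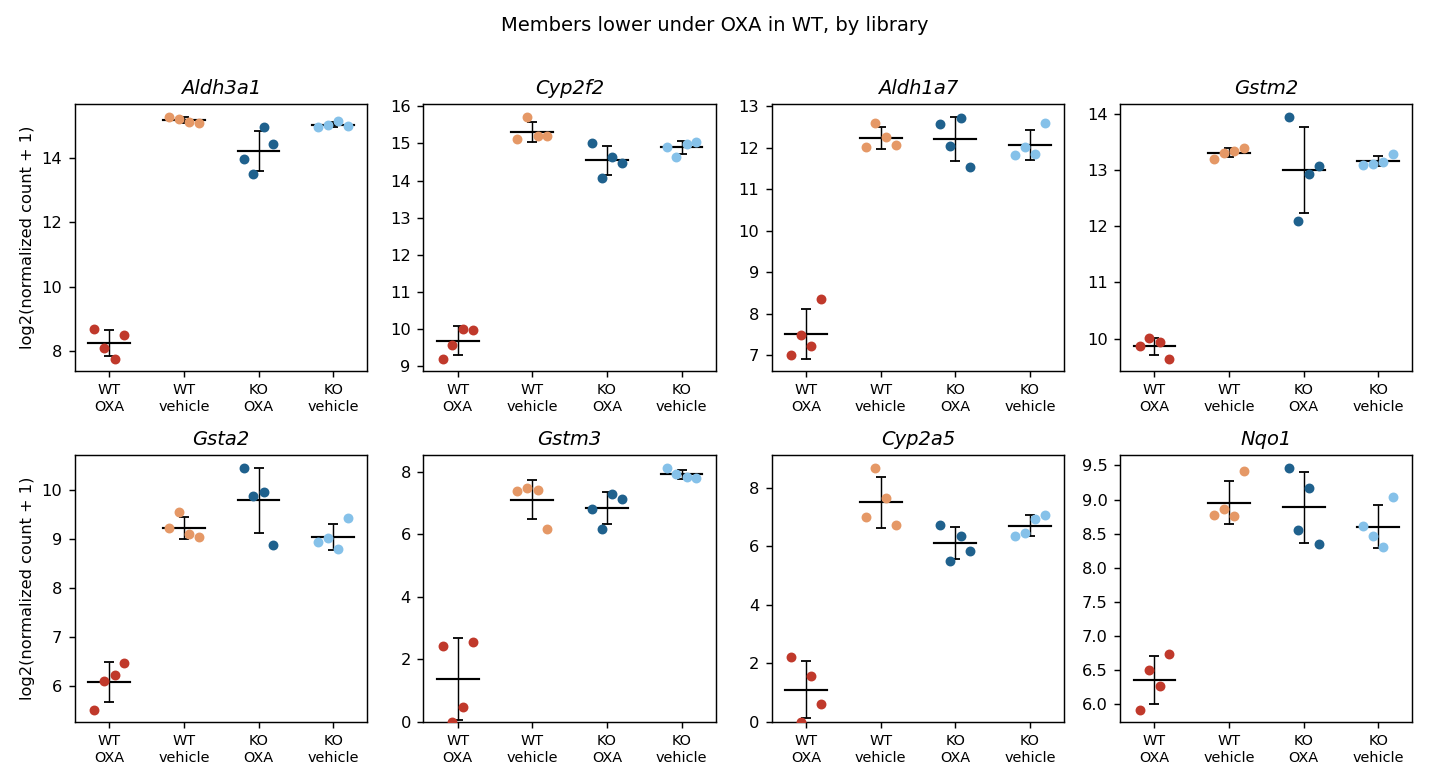
Normalized counts of 8 members lower under OXA in WT, by library (y axis, log2 of value + 1; points are libraries, lines are means, bars are SD, n = 4 a group). WT OXA lies below the other 3 groups in each panel, with means of 315 in WT OXA against 36849.7 in WT vehicle for Aldh3a1 and of 82.5 in WT OXA against 504 in WT vehicle for Nqo1.

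Among 18 aldehyde dehydrogenases 9 fell and 3 rose in WT. The share of rises, 16.7%, was near the 18.0 percent of all genes tested. Aldh3a1, an abundant crystallin-like enzyme of cornea that oxidizes aromatic and lipid aldehydes, changed most of all members (ENSMUSG00000019102, chromosome 11, 61207537 to 61218421). Aldh3a1 in WT stood at 411, 271, 218 and 361 under OXA, against 39779.9, 37956, 35183 and 34481 under vehicle. Aldh3a1 fell by 6.90 ± 0.24 on the log2 scale (adjusted p = 4.17e-13), with means of 315 ± 86.8 under OXA and 36849.7 ± 2463 under vehicle (SD, n = 4 each). Aldh3a1 in KO stood at 15974, 11544, 31779 and 22171 under OXA, against 31836, 33402, 35839 and 32736 under vehicle (-0.82 ± 0.24, adjusted p = 0.107). The KO OXA values were all lower than KO vehicle but spread widely, and the test was passed without KO OXA replicate 4 (adjusted p = 0.0483), without KO OXA replicate 3 (adjusted p = 0.0117) and with quantile normalization (adjusted p = 0.034). Aldh1a7 in WT stood at 127, 179.6, 148 and 327 under OXA, against 4154, 6243, 4939 and 4306 under vehicle. Aldh1a7 fell by 4.72 ± 0.27 on the log2 scale (adjusted p = 2.28e-10); this rodent relative of Aldh1a1 was lower in every WT OXA library (ENSMUSG00000024747, chromosome 19, 20692953 to 20727562). Aldh1a7 in KO stood at 6069, 4216, 6748 and 2988 under OXA, against 3642, 4154, 3690.3 and 6157 under vehicle (0.15 ± 0.27, adjusted p = 0.862), with overlap.

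Aldh1a3, which makes retinoic acid from retinaldehyde, went the other way. Aldh1a3 in WT stood at 641, 245, 542 and 502 under OXA, against 33.0, 32.5, 10.9 and 13.4 under vehicle. Aldh1a3 rose by 4.44 ± 0.45 on the log2 scale (adjusted p = 4.93e-07) and its WT groups did not overlap (ENSMUSG00000015134, chromosome 7, 66390890 to 66427517). Aldh1a3 in KO stood at 31.2, 15.5, 42.1 and 33.1 under OXA, against 24.4, 41.4, 38.8 and 11.5 under vehicle (0.14 ± 0.45, adjusted p = 0.928), and the KO groups overlapped. The related Aldh1a1, chosen after its values were seen, fell in WT (-0.69 ± 0.16, adjusted p = 0.00274), a call lost with equal library totals (adjusted p = 0.062), and Aldh1a2 stood at 0.60 ± 0.35, adjusted p = 0.197. Aldh1l2, the mitochondrial enzyme that oxidizes formyltetrahydrofolate, rose in both genotypes. Aldh1l2 in WT stood at 121, 96.0, 110.2 and 191 under OXA, against 79.9, 68.0, 42.0 and 78.0 under vehicle. Aldh1l2 rose by 0.93 ± 0.27 on the log2 scale (adjusted p = 0.0105) in WT, a call lost without WT OXA replicate 4 (adjusted p = 0.0507). Aldh1l2 in KO stood at 211, 212, 142 and 119 under OXA, against 75.0, 68.2, 76.8 and 75.5 under vehicle. In KO the rise of Aldh1l2 was 1.16 ± 0.27 (adjusted p = 0.0236), with all KO OXA libraries higher, and was lost without any 1 of the KO vehicle libraries or KO OXA replicate 1 or 2 (adjusted p up to 0.108). It was also lost with equal library totals (adjusted p = 0.052). The interaction for Aldh1l2 was 0.22 ± 0.38, adjusted p = 0.728.

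The other aldehyde dehydrogenases were described after their values were seen. Aldh2, the mitochondrial enzyme of acetaldehyde (-1.57 ± 0.24), Aldh3b2, an enzyme of fatty aldehydes (-1.64 ± 0.22), Aldh5a1, succinate semialdehyde dehydrogenase (-1.04 ± 0.20), and Aldh9a1, which acts on aminobutyraldehyde (-1.05 ± 0.17), were lower in WT. Aldh6a1 and Aldh7a1, enzymes of valine and lysine breakdown, were lower by smaller amounts (-0.74 ± 0.17 and -0.78 ± 0.21). Aldh3b1 was higher (1.54 ± 0.58, adjusted p = 0.0449), a call lost when any WT OXA library, WT vehicle replicate 2 or 3, or KO vehicle replicate 1, 2 or 3 was left out (adjusted p up to 0.16). That call was lost as well with edgeR (adjusted p = 0.0945), DESeq2 (adjusted p = 0.0569), no filter (adjusted p = 0.101), a filter of 20 (adjusted p = 0.0539), quantile normalization (adjusted p = 0.111) and thinned reads (adjusted p = 0.0856). The Aldh7a1 call was lost with equal library totals (adjusted p = 0.0741). The remaining 6 members, among them Aldh3a2 (-0.05 ± 0.21) and Aldh16a1 (-0.33 ± 0.24), did not pass.

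Cytochromes P450 of family 2 held deep falls: 6 of 15 fell and 2 rose in WT. The share of rises, 13.3%, was not above the 18.0 percent of all genes tested. Cyp2f2, known from airway club cells as the enzyme that activates naphthalene, was abundant in this esophagus (ENSMUSG00000052974, chromosome 7, 27119909 to 27133660). Cyp2f2 in WT stood at 589, 755, 1032 and 1014 under OXA, against 35726, 54185, 37463 and 37681 under vehicle. Cyp2f2 fell by 5.62 ± 0.22 on the log2 scale (adjusted p = 1.16e-12), with means of 848 ± 214 under OXA and 41264 ± 8658 under vehicle. Cyp2f2 in KO stood at 32806, 17136, 25611 and 22882 under OXA, against 30809, 25431, 32200.2 and 33988 under vehicle (-0.34 ± 0.22, adjusted p = 0.52). The WT groups lay far apart and the KO groups overlapped. WT vehicle replicate 2, the library with hepatocyte transcripts, was the highest, and without it the change in WT was -5.48 (adjusted p = 1.29e-11). Scgb1a1 in WT stood at 24.3, 3.08, 9.02 and 7.02 under OXA, against 33.0, 161, 109 and 64.6 under vehicle; this defining product of club cells fell by 3.06 on the log2 scale (adjusted p = 0.000106). The 9 airway markers summed to 7.70 to 45.9 in WT OXA, 37.2 to 180.8 in WT vehicle, 41.7 to 55.9 in KO OXA and 49.4 to 91.9 in KO vehicle, with 2 of 9 high enough to test and Muc5b at 0 in every library. Of these 2 only Scgb1a1 was called in WT. The median log2 fold change of both was -1.24, so the other tested marker did not fall. The part of airway cells in the fall of Cyp2f2 was not tested.

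Cyp2a5 in WT stood at 3.63, 0, 1.96 and 0.54 under OXA, against 127, 409.5, 199 and 105 under vehicle; it hydroxylates coumarin and nicotine in mouse. Cyp2a5 fell by 6.41 ± 0.47 on the log2 scale (adjusted p = 5.68e-09) and all WT OXA values were at or near 0 (ENSMUSG00000005547, chromosome 7, 26835305 to 26843548). Cyp2a5 in KO stood at 106, 44.1, 81.7 and 55.9 under OXA, against 80.9, 87.2, 122 and 135 under vehicle (-0.60 ± 0.47, adjusted p = 0.615), with overlap. Without WT vehicle replicate 2 its change in WT was -6.02 (adjusted p = 4.11e-08). A run of 96 bases in its last 300 is identical in Cyp2a4, so tags of both genes can be confused. Cyp2s1, an extrahepatic enzyme induced through the aryl hydrocarbon receptor, stood in WT at 265, 445, 315 and 397 under OXA, against 1793, 1235, 1269.8 and 1649 under vehicle. Cyp2s1 fell by 2.07 ± 0.19 on the log2 scale (adjusted p = 1.51e-07) without overlap (ENSMUSG00000040703, chromosome 7, 25802475 to 25816913). Cyp2s1 in KO stood at 2099, 1174, 1584 and 1710.5 under OXA, against 1713, 1569.8, 1933 and 1444 under vehicle (-0.04 ± 0.19, adjusted p = 0.948), and these ranges overlapped. Cyp2c65 fell in WT (-1.72 ± 0.31, adjusted p = 0.000282) and Cyp2c66 did too (-1.34 ± 0.44, adjusted p = 0.0238), that call being lost on omitting WT OXA replicate 1 or WT vehicle replicate 1 or 2 (adjusted p up to 0.1) and with equal library totals (adjusted p = 0.0669). Cyp2b19, a keratinocyte epoxygenase in mouse, was at 0 in all 4 WT OXA libraries, against 4.13, 10.8, 5.47 and 0 in WT vehicle; its call was lost on omitting replicate 2 or 3 of WT vehicle (adjusted p up to 0.0764) and with a pseudocount of 5 (adjusted p = 0.0575). Cyp2b10, a target of the constitutive androstane receptor in liver, rose (1.08 ± 0.27, adjusted p = 0.0044).

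Cyp2ab1, a family 2 gene, differed in WT vehicle from the other 3 groups. Cyp2ab1 in WT stood at 17.8, 13.3, 23.5 and 29.2 under OXA, against 1.38, 0, 1.82 and 0 under vehicle. Cyp2ab1 in KO stood at 25.7, 36.9, 11.1 and 17.3 under OXA, against 24.4, 16.4, 22.1 and 18.1 under vehicle. The WT vehicle libraries were at or near 0 and every other library was above 11. A read was worth 1.38 to 2.23 normalized counts in WT vehicle, the shallowest group. Cyp2ab1 rose by 3.71 ± 0.51 on the log2 scale (adjusted p = 1.72e-05) in WT, while in KO its change was 0.05 ± 0.51, adjusted p = 0.974 (ENSMUSG00000022818, chromosome 16, 20308387 to 20325404). Under vehicle it was higher in KO than in WT by 3.71 ± 0.51 (adjusted p = 0.00284) without overlap, and the call held in every alternative, each library left out included.

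Cyp1b1, the only family 1 member, hydroxylates estradiol and is induced by the aryl hydrocarbon receptor. Cyp1b1 in WT stood at 151, 88.3, 172 and 88.0 under OXA, against 28.9, 74.2, 20.1 and 35.7 under vehicle. Cyp1b1 rose by 1.73 ± 0.36 on the log2 scale (adjusted p = 0.00098), and the WT OXA libraries all lay above WT vehicle (ENSMUSG00000024087, chromosome 17, 79706953 to 79715041). Cyp1b1 in KO stood at 49.5, 42.9, 56.9 and 41.8 under OXA, against 34.1, 35.4, 38.0 and 21.3 under vehicle (0.58 ± 0.36, adjusted p = 0.501), apart in the same direction but without a call. Cyp3a13, the only family 3 member, an extrahepatic relative of the main drug-metabolizing P450, stood in WT at 359, 319, 475 and 476 under OXA, against 401, 692, 439.7 and 341 under vehicle (-0.17 ± 0.24, adjusted p = 0.621). Cyp3a13 in KO stood at 673, 645, 744 and 356 under OXA, against 340.2, 429.8, 394 and 537 under vehicle (0.47 ± 0.24, adjusted p = 0.385). The Cyp3a13 ranges overlapped in both genotypes, and with both libraries that stood apart left out it passed as higher in KO (0.71, adjusted p = 0.0243). The Cyp3a13 interaction (0.64 ± 0.34, adjusted p = 0.2) and the difference of KO from WT under OXA (0.54 ± 0.24, adjusted p = 0.103) were not called with all libraries and were called without KO OXA replicate 4 (adjusted p = 0.0432 and 0.012).

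Family 4 enzymes hydroxylate the ends of fatty acids and eicosanoids, and 4 of 8 rose and 2 fell in WT. Cyp4f18 inactivates leukotriene B in mouse neutrophils. Cyp4f18 in WT stood at 169, 97.5, 118 and 148 under OXA, against 23.4, 21.6, 20.1 and 29.0 under vehicle. Cyp4f18 rose by 2.43 ± 0.45 on the log2 scale (adjusted p = 0.000363), the WT groups lying apart (ENSMUSG00000003484, chromosome 8, 71988482 to 72009626). Cyp4f18 in KO stood at 110.0, 84.5, 22.3 and 29.9 under OXA, against 36.1, 20.7, 10.7 and 14.8 under vehicle (1.38 ± 0.45, adjusted p = 0.142). KO OXA replicates 1 and 2 lay above the KO vehicle range and replicates 3 and 4 within it, and it passed as higher in KO with DESeq2 (adjusted p = 0.0247). Cyp4v3, the mouse counterpart of a human fatty acid hydroxylase gene of retinal dystrophy, stood in WT at 14.9, 12.8, 16.9 and 20.5 under OXA, against 5.51, 1.55, 3.65 and 0 under vehicle. Cyp4v3 rose by 2.52 ± 0.60 on the log2 scale (adjusted p = 0.00283) without overlap. Cyp4v3 in KO stood at 5.5, 7.14, 3.71 and 3.15 under OXA, against 5.85, 3.45, 3.8 and 4.92 under vehicle (0.06 ± 0.60, adjusted p = 0.974), with overlap. Cyp4b1, which activates the plant toxin ipomeanol, stood in WT at 159, 125, 71.8 and 74.0 under OXA, against 215, 372, 358 and 249.6 under vehicle. Cyp4b1 fell by 1.51 ± 0.28 on the log2 scale (adjusted p = 0.00044), apart in WT. Cyp4b1 in KO stood at 171, 91.7, 179 and 217 under OXA, against 290.5, 214, 271 and 315 under vehicle (-0.78 ± 0.28, adjusted p = 0.212), with overlap.

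Chosen after their values were seen, Cyp4f16 (1.45 ± 0.48, adjusted p = 0.0244) and Cyp4f17 (2.84 ± 0.84, adjusted p = 0.0132) rose and Cyp4f13 (-0.85 ± 0.27, adjusted p = 0.02) fell in WT. The Cyp4f17 call was lost on omitting replicate 4 of WT vehicle (adjusted p = 0.0529), that of Cyp4f16 on omitting WT OXA replicate 4 or WT vehicle replicate 3 (adjusted p up to 0.0961), and that of Cyp4f13 on omitting WT OXA replicate 2 or WT vehicle replicate 1 or 2 (adjusted p up to 0.0774). The Cyp4f16 call was lost as well with no filter (adjusted p = 0.0542), quantile normalization (adjusted p = 0.0609) and thinned reads (adjusted p = 0.0503), that of Cyp4f17 with thinned reads (adjusted p = 0.0543) and that of Cyp4f13 with equal library totals (adjusted p = 0.132). Cyp4f13 and Cyp4f17 share a run of 59 bases in the last 300.

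**Figure D3:**
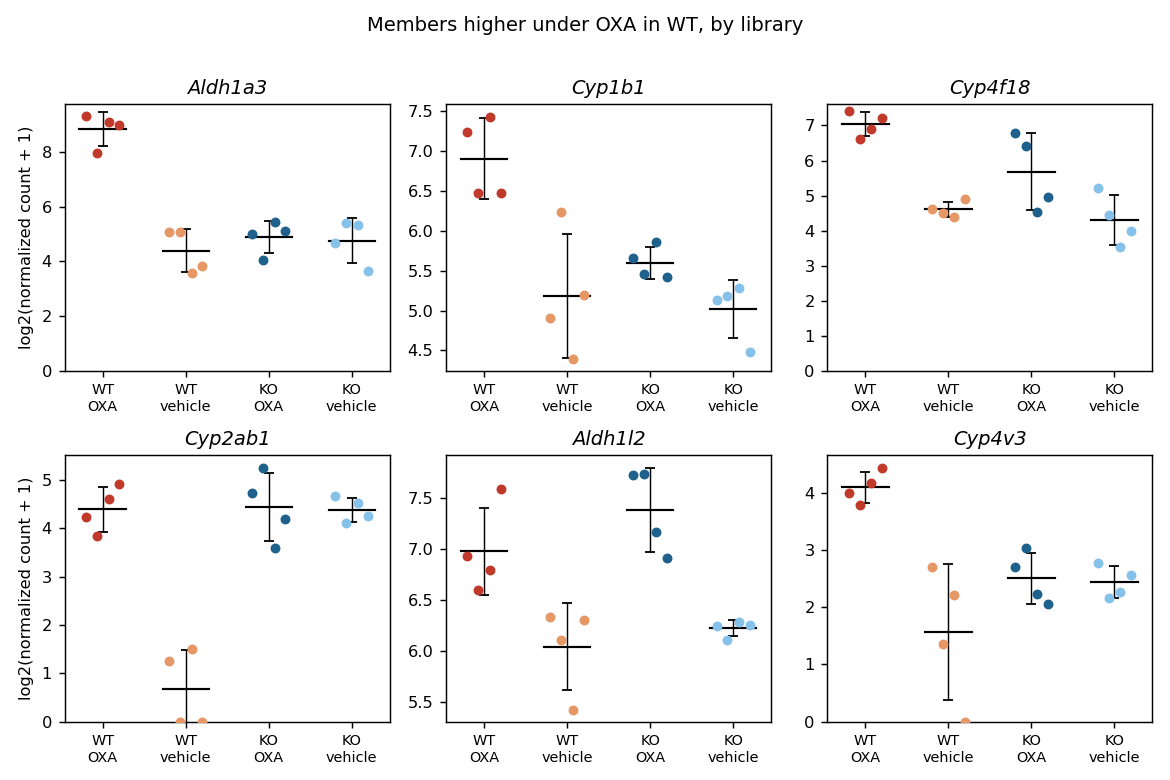
Normalized counts of 6 members higher under OXA in WT, by library (y axis, log2 of value + 1; points are libraries, lines are means, bars are SD, n = 4 a group). Aldh1a3 is high in WT OXA alone, Aldh1l2 is higher under OXA in both genotypes, and Cyp2ab1 is near 0 in WT vehicle alone.

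Epoxide hydrolases fell in WT in 3 of 4 members. Ephx1, the microsomal enzyme of drug epoxides, stood in WT at 680.1, 555, 462 and 415 under OXA, against 1179, 1076, 1249.7 and 1636 under vehicle. Ephx1 fell by 1.29 ± 0.19 on the log2 scale (adjusted p = 4.32e-05) without overlap (ENSMUSG00000038776, chromosome 1, 180976210 to 181020904). Ephx1 in KO stood at 1265, 686, 873 and 1126 under OXA, against 1137, 1100.3, 1167 and 947 under vehicle (-0.17 ± 0.19, adjusted p = 0.738), with overlap. Ephx3, which acts on linoleate epoxides of the epidermal barrier, stood in WT at 875, 1189.5, 701 and 1124 under OXA, against 2099.8, 2094, 2087 and 2153 under vehicle. Ephx3 fell by 1.15 ± 0.16 on the log2 scale (adjusted p = 1.94e-05), the WT OXA range lying wholly below. Ephx3 in KO stood at 2429.5, 1756, 2259 and 2256 under OXA, against 2259, 1872, 2386 and 2224 under vehicle (-0.01 ± 0.16, adjusted p = 0.982), the ranges overlapping. Ephx2, the soluble enzyme of arachidonate epoxides, stood in WT at 118, 63.6, 36.1 and 34.6 under OXA, against 85.4, 125, 149.6 and 136 under vehicle. Ephx2 fell by 1.12 ± 0.34 on the log2 scale (adjusted p = 0.0169) although WT OXA replicate 1 lay within the vehicle range, and the call was lost without WT OXA replicate 3 or 4 (adjusted p up to 0.0679) and with equal library totals (adjusted p = 0.0685). Ephx2 in KO stood at 84.3, 45.2, 65.6 and 43.3 under OXA, against 69.2, 53.5, 82.9 and 67.3 under vehicle (-0.23 ± 0.34, adjusted p = 0.821), with overlap. Ephx4 stood at 0.07 ± 0.27, adjusted p = 0.871 in WT.

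Nqo1, the quinone reductase that serves as a standard readout of NRF2, fell in WT. Nqo1 in WT stood at 59.5, 89.3, 75.7 and 105 under OXA, against 436, 464, 432 and 684 under vehicle. Nqo1 fell by 2.60 ± 0.25 on the log2 scale (adjusted p = 2.01e-07), far outside the spread of either group (ENSMUSG00000003849, chromosome 8, 107388225 to 107403206). Nqo1 in KO stood at 708, 376, 577 and 324 under OXA, against 389.9, 352, 313 and 525 under vehicle (0.28 ± 0.25, adjusted p = 0.651). The KO groups overlapped. Nqo2, its relative that uses dihydronicotinamide riboside, stood in WT at 176, 127, 124 and 131 under OXA, against 242, 178, 237 and 114 under vehicle (-0.42 ± 0.23, adjusted p = 0.168). Nqo2 in KO stood at 145, 225, 244 and 218 under OXA, against 239, 242, 244 and 212 under vehicle (-0.20 ± 0.23, adjusted p = 0.756). Nqo2 overlapped in both genotypes, and in WT it passed as lower without WT vehicle replicate 4 (adjusted p = 0.0212).

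Few glucuronosyltransferases passed the level rule: 1 of 9 Ugt1 and 1 of 10 Ugt2 genes were members. Ugt1a7c in WT stood at 1.09, 8.72, 0.78 and 9.72 under OXA, against 6.88, 12.4, 7.3 and 8.91 under vehicle (-1.12 ± 0.75, adjusted p = 0.265). Ugt1a7c in KO stood at 1.83, 8.33, 2.48 and 11.03 under OXA, against 10.7, 2.59, 1.52 and 1.64 under vehicle (0.50 ± 0.75, adjusted p = 0.821). Ugt1a genes share their last exons, and the last 300 bases of Ugt1a7c are identical in 2 others of the 9, so its tags do not tell them apart. How such tags were counted is not given in the sources used here, so low Ugt1a counts need not mean low expression. Ugt2b34 in WT stood at 3.63, 2.57, 9.02 and 0 under OXA, against 8.26, 20.1, 7.3 and 26.7 under vehicle (-2.02 ± 1.03, adjusted p = 0.141). Ugt2b34 in KO stood at 18.3, 23.8, 0 and 3.15 under OXA, against 0, 9.49, 8.37 and 0 under vehicle (1.08 ± 1.03, adjusted p = 0.688). Values of both genes were low and overlapped in both genotypes, and neither was called by limma.

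Without Il13ra1 the share of members called by limma under OXA was near that of all genes. Of 73, 1 was higher in KO OXA than in KO vehicle, Aldh1l2, and 0 were lower (limma), 1.37% called against 1.90 percent of all genes; for the directions apart, 1.81 percent of all genes were higher and 0.0896 percent lower. An unadjusted p under 0.05 was seen for 14 members (19.2%, against 14.2% of all genes), edgeR called 1 (1.37% against 2.31%) and DESeq2 called 7 (9.59% against 4.31%). The median log2 fold change was 0.03 over members and -0.02 over all genes. Without KO OXA replicate 4, the library with the most genes above 0, 9 members were higher beside Aldh3a1 as lower. The 9 were Cyp2b10, Cyp2c65, Cyp4f18, Gsta1, Gsta2, Gstm5, Mgst1, Mgst2 and Aldh1l2. With WT vehicle replicate 2 left out as well, 10 were higher and 0 lower. Without KO OXA replicate 3 there were 2 higher and 1 lower, without WT OXA replicate 1 there were 1 and 1, and without KO OXA replicate 1 or 2 or any KO vehicle library there were 0 and 0.

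The difference between the OXA effects, KO minus WT, was tested as an interaction. It was called positive for 28 members and negative for 4 (limma), 43.8% called against 17.8 percent of all genes. By direction the shares were 38.4% against 10.1 percent and 5.48% against 7.67 percent. Called or not, it was above 0 for 48 of the 73 members. The median was 0.73 over members and -0.10 over all genes. Aldh3a1 had the largest, 6.09 ± 0.35 (adjusted p = 1.02e-09), followed in p by Cyp2f2 (5.27 ± 0.31, adjusted p = 1.43e-09), Aldh1a7 (4.87 ± 0.39, adjusted p = 6.65e-08) and Gsta2 (3.91 ± 0.37, adjusted p = 6.23e-07). All 4 alpha, all 3 microsomal and 5 of 7 mu transferases were called positive, as were 5 of 15 family 2 P450s and 5 of 18 aldehyde dehydrogenases. All 7 mu values were above 0. Called negative were Aldh1a3 (-4.30 ± 0.64, adjusted p = 0.000139), Cyp2ab1 (-3.66 ± 0.72, adjusted p = 0.00167), Cyp4f17 (-4.31 ± 1.19, adjusted p = 0.0165) and Cyp4v3 (-2.46 ± 0.84, adjusted p = 0.0488). The Cyp4v3 value was called in 3 of the 16 fits that left out a library each and was lost in the other 13 (adjusted p up to 0.0953), WT vehicle replicates 1 and 3 and KO OXA replicate 2 being the exceptions. It was lost as well with edgeR (adjusted p = 0.0895), no filter (adjusted p = 0.0878), a pseudocount of 0.5 (adjusted p = 0.0609), quantile normalization (adjusted p = 0.122) and thinned reads (adjusted p = 0.0807). The Cyp4f17 value was lost with thinned reads (adjusted p = 0.0551). Gstm4, not called with all libraries (0.83 ± 0.35, adjusted p = 0.111), was called without KO OXA replicate 4 (adjusted p = 0.0331). Cyp1b1, not called with all libraries (-1.15 ± 0.51, adjusted p = 0.122), was called without WT vehicle replicate 2 (-1.50, adjusted p = 0.0254).

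Set against WT under OXA, KO held more of these enzymes. Under OXA 34 members were higher in KO than in WT and 4 were lower, 52.1% called against 27.6 percent of all genes, with 14.6 percent of all genes higher and 12.9 percent lower. Equal library totals gave 27 higher and 10 lower members and moved the median of all genes by -0.39. This contrast shares its WT OXA libraries with the OXA effect in WT, so the values are a second view of the same libraries. Aldh3a1 was higher in KO by 5.95 ± 0.24 (adjusted p = 1.5e-12), Cyp2f2 by 4.86 ± 0.22 (adjusted p = 6.87e-12), Aldh1a7 by 4.70 ± 0.27 (adjusted p = 1.76e-10) and Gsta2 by 3.73 ± 0.26 (adjusted p = 3.07e-09). Lower in KO were Aldh1a3 (-3.94 ± 0.45, adjusted p = 2.47e-06), Cyp1b1 (-1.31 ± 0.36, adjusted p = 0.00933), Cyp4f17 (-3.30 ± 0.84, adjusted p = 0.00589) and Cyp4f18 (-1.36 ± 0.45, adjusted p = 0.0285). The Cyp4f18 call was lost on omitting KO OXA replicate 3 or 4 or any of WT OXA replicates 1, 3 and 4 (adjusted p up to 0.118) and with no filter (adjusted p = 0.0582). Cyp2j6, chosen after its values were seen, was higher in KO (0.999 ± 0.23, adjusted p = 0.00312), without a call for OXA in WT (-0.44 ± 0.23, adjusted p = 0.153) or for the interaction (0.73 ± 0.33, adjusted p = 0.136). Gstt1 (0.79 ± 0.26, adjusted p = 0.0267) was lost on omitting KO OXA replicate 1 or 3 or one of WT OXA replicates 3 and 4 (adjusted p up to 0.109) and with equal library totals (adjusted p = 0.214).

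Under vehicle 1 member differed between the genotypes. Cyp2ab1 was higher in KO and 0 were lower (limma), 1.37% called against 0.0597 percent of all genes, 0.0358 percent higher and 0.0239 percent lower. An unadjusted p under 0.05 was seen for 7 members, 9.59% against 9.13% of all genes, a share near the background. edgeR and DESeq2 each called 1 member (1.37%), against 0.0418% and 0.275% of all genes. The median log2 fold change was -0.15 over members and 0.02 over all genes.

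Genes that work with the members were read from 7 lists, beside all genes tested, of which 16 percent were lower and 18.0 percent higher in WT and 1.90 percent were called in KO. For lists of this size a count of 0 in KO is near that share. Of 20 NRF2 target genes, 12 fell and 2 rose in WT, and in KO 1 rose and 0 fell (limma; 6 with an unadjusted p under 0.05, edgeR 1, DESeq2 3). Osgin1, a growth inhibitor, fell (-2.23 ± 0.29, adjusted p = 8.88e-06), and so did G6pdx, the first enzyme of the pentose phosphate path (-1.60 ± 0.22, adjusted p = 1.84e-05). Gsr in WT stood at 549.8, 561, 783 and 659 under OXA, against 190.0, 248.8, 117 and 192 under vehicle; this glutathione reductase rose (1.80 ± 0.22, adjusted p = 4.92e-06) with no overlap. Slc7a11, the cystine importer, rose in WT (1.58 ± 0.29, adjusted p = 0.000351) and in KO (1.37 ± 0.29, adjusted p = 0.0134), the KO call being lost without KO vehicle replicate 1 or 3 or KO OXA replicate 2 (adjusted p up to 0.0656). Of 16 xenobiotic sensors and partners tested, 7 fell and 2 rose in WT and 0 were called in KO (unadjusted 4, edgeR 0, DESeq2 0). Por, the electron donor of microsomal P450s, fell (-1.23 ± 0.19, adjusted p = 7.6e-05), as did Maff, a partner of NRF2 (-1.04 ± 0.18, adjusted p = 0.000168), and Cyb5r3, a cytochrome b reductase (-0.93 ± 0.20, adjusted p = 0.00128). Nfe2l2, which encodes NRF2 and was chosen after its values were seen, fell (-0.64 ± 0.16, adjusted p = 0.00429).

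Of 17 alcohol, aldo-keto and carbonyl reductases, 9 fell and 2 rose in WT and 0 were called in KO (unadjusted 1, edgeR 0, DESeq2 0). The carbonyl reductases Cbr1 (-1.90 ± 0.17, adjusted p = 8.35e-08) and Cbr2 (-3.07 ± 0.29, adjusted p = 2.35e-07) fell, and so did Adh7, the retinol and ethanol dehydrogenase of upper digestive epithelium. Adh7 in WT stood at 666, 1069, 1381 and 1558 under OXA, against 4998, 5781, 5978 and 6958 under vehicle (-2.40 ± 0.26, adjusted p = 1.24e-06), with no overlap. Adh7 in KO stood at 9777, 5002, 6684 and 4636 under OXA, against 4448, 4979, 5009.7 and 8338 under vehicle (0.18 ± 0.26, adjusted p = 0.815). Of 15 retinoid handling genes, 8 fell and 2 rose in WT and 0 were called in KO (unadjusted 6, edgeR 0, DESeq2 2). Cyp26b1, which degrades retinoic acid, fell (-2.47 ± 0.30, adjusted p = 5.44e-06), as did the retinol dehydrogenase Dhrs9 (-1.22 ± 0.17, adjusted p = 1.75e-05) and the retinoic acid carrier Crabp2 (-1.31 ± 0.20, adjusted p = 5.03e-05).

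Of 20 other conjugating enzymes and esterases, 7 fell and 4 rose in WT and 0 were called in KO (unadjusted 1, edgeR 0, DESeq2 0). The carboxylesterases Ces1d (-2.46 ± 0.19, adjusted p = 1.42e-08) and Ces2e (-2.47 ± 0.25, adjusted p = 4.93e-07) fell. Of 7 export pumps 1 fell and 1 rose in WT and 0 were called in KO (unadjusted 0, edgeR 0, DESeq2 0). The WT counts of the pumps, and the 4 higher calls among the other conjugating enzymes, were near the shares of all genes. Abcc3, which exports conjugates, fell (-1.34 ± 0.19, adjusted p = 3.1e-05), and Abcg2 rose (0.41 ± 0.16, adjusted p = 0.0484), a call lost in 12 of 16 fits that left out a library (adjusted p up to 0.131), among them all 4 without a WT OXA library. Abcc5 stood at 0.31 ± 0.19, adjusted p = 0.21. Of 17 genes of peroxide and superoxide removal, 5 fell and 1 rose in WT and 0 were called in KO (unadjusted 3, edgeR 0, DESeq2 2). Catalase, Cat (-2.18 ± 0.19, adjusted p = 5.72e-08), and Prdx6 (-1.39 ± 0.13, adjusted p = 2.3e-07) fell, while thioredoxin, Txn1 (1.56 ± 0.19, adjusted p = 5.96e-06), rose. The median log2 fold changes in WT were -0.67 for NRF2 targets, -0.32 for sensors, -0.72 for reductases, -0.81 for retinoid genes, 0.01 for other conjugating enzymes, 0.31 for pumps and -0.36 for peroxide removal, beside 0.10 over all genes tested.

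**Figure D4:**
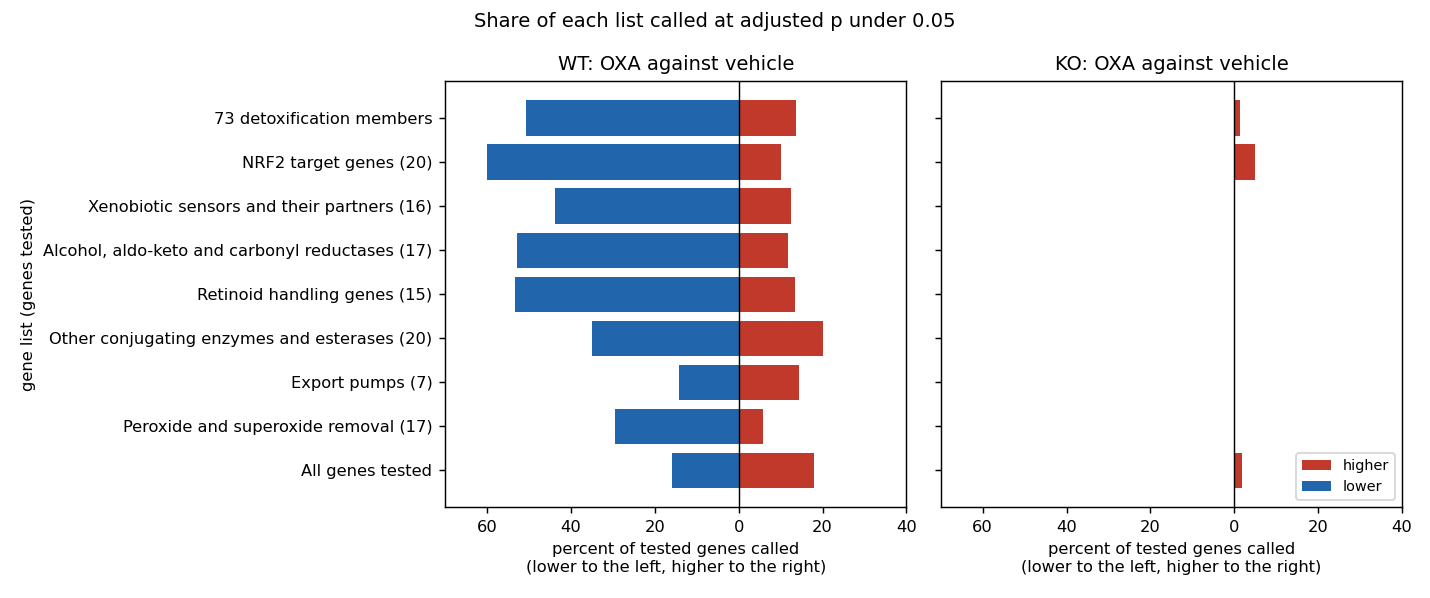
Percent of tested genes lower (left) and higher (right) under OXA against vehicle in WT and in KO, for the 73 members, 7 lists of related genes and all genes tested. In WT the members, NRF2 targets, reductases and retinoid genes have the longest bars to the left, and in KO no list has a lower call.

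Other cell types moved with OXA too. Of all genes tested, 18.0 percent were higher and 16 percent lower in WT. In KO 1.81 percent were higher and 0.0896 percent lower, and for lists of this size a count of 0 is near these shares. Of 10 T cell markers 9 were higher and 1 lower in WT and 0 were called in KO (unadjusted 4, edgeR 0, DESeq2 1), with sums of 765 to 1039 in WT OXA, 187 to 333 in WT vehicle, 184 to 774 in KO OXA and 185.5 to 397 in KO vehicle. Of 12 macrophage and dendritic cell markers 8 were higher in WT and 8 in KO, with sums of 13162 to 14384 in WT OXA, 6527 to 8132 in WT vehicle, 10750.2 to 21898 in KO OXA and 3834 to 5618 in KO vehicle. Of 9 basal epithelial markers tested 3 were higher and 4 lower in WT, and their sums overlapped between the WT groups; 0 were called in KO (unadjusted 3, edgeR 0, DESeq2 1). Of 9 endothelial markers tested 8 were higher and 0 lower in WT, and 0 were called in KO (unadjusted 4, edgeR 0, DESeq2 0). Their interaction was called negative for 7, beside 7.67 percent of all genes. All 9 were lower in KO than in WT under OXA, beside 12.9 percent of all genes. The endothelial sums were 2149 to 3570.3 in WT OXA, 1074 to 1479.5 in WT vehicle, 613 to 1255 in KO OXA and 879.8 to 1414 in KO vehicle, WT OXA lying above the other 3 groups. In WT 4 of 8 smooth muscle and 3 of 10 skeletal muscle markers were lower and 0 higher. Of 9 fibroblast markers tested 1 was higher and 1 lower in WT, counts near the shares of all genes. In WT 0 of 7 adipocyte markers (unadjusted 1, edgeR 0, DESeq2 1) and 0 of 5 glandular stomach markers (unadjusted 0, edgeR 0, DESeq2 0) were called. In KO 0 markers of these 4 lists and of fibroblasts were called (unadjusted 0 to 2, edgeR 0, DESeq2 0). The part of these cells in the members' levels was not tested.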

How the data were processed

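CEL-Seq libraries of 16 mouse esophagus samples were used. Per the submitters' processing notes, the authors used FastQC 0.11.5, Trim Galore, cutadapt 1.10, TopHat2 2.1.0, Bowtie2 2.2.6, HTSeq 0.6.1 and DESeq2 1.28.0 with GRCm38; no source used here gives the annotation or any use of molecular identifiers. The table's values are a signal deposited by the authors, gene counts scaled by a size factor for each library; every value was a whole multiple of what 1 read is worth (100% within 0.1 of a read), so reads and depth were recovered. Coordinates are those of the table.

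The main test was limma 3.58.1 (R 4.3.3) on log2(value + 1), all 16 libraries, a mean for each group, trended eBayes, two-sided, with Benjamini-Hochberg adjustment over the 16748 genes at 5 or more in at least 4 libraries and a threshold of 0.05. Adjusted p-values are limma's unless another tool is named, values are normalized counts, and fold changes (± SE) understate the change of low genes. On recovered reads edgeR 4.0.16 called 5510 genes and DESeq2 1.42.0 called 6037 for OXA against vehicle in WT, against 5692 by limma. The other alternatives were pseudocounts of 0.5 and 5, quantile normalization, equal library totals, a filter of 20 (13871 genes), none (27009 genes) and each library left out; thinning to the lowest library total and leaving out WT vehicle replicate 2 with KO OXA replicate 4 were added after seeing the data. The fit was tested on simulated data. Up to 3 members of each family with the smallest adjusted p in WT, and up to 6 members called in each other comparison, by smallest adjusted p, are given for every library; up to 3 genes of each list are named, and 1 result is not reported here. The members and lists were chosen with earlier results of these data known. Promoters were matched by symbol to RefSeq's table (GRCm38.p6).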

Additional observations from a re-analysis of the deposited data

Results flagged for a closer look

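Single libraries lay far from the others of their group, by Dixon's gap test at 95%, in 9 of 148 groups of 4 values examined, where chance marks about 1 in 20. These were Cyp2f2 at 54185 in WT vehicle replicate 2 (the library with hepatocyte transcripts), Gsta4 at 57558 in KO OXA replicate 1, Gstm3 at 71.3 and Nqo1 at 684 in WT vehicle replicate 4, Gstp3 at 9.75 in WT OXA replicate 2 and Nqo2 at 176 in WT OXA replicate 1. The other 3 were in KO vehicle, Gstt2 at 36.1 and Nqo2 at 212 in replicate 4 and Ugt1a7c at 10.7 in replicate 1.

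The OXA effect differed between the genotypes, as the KO effect minus the WT effect on the log2 scale, for 23 of the 37 members given for every library (limma interaction, adjusted p from 1.02e-09 to 0.0488). These 37 were picked in part by their adjusted p in WT and in this interaction, which raises the count. Over all 73 members 43.8% were called, against 17.8 percent of all genes. Positive were Aldh3a1 (6.09), Cyp2f2 (5.27), Aldh1a7 (4.87), Gsta2 (3.91), Gstm2 (3.29), Cyp2a5 (5.81), Nqo1 (2.88), Mgst3 (2.37), Cyp2s1 (2.03), Gstm1 (2.19), Gstm3 (4.68), Gstk1 (1.69), Mgst2 (1.80), Ephx3 (1.14), Gsta4 (2.19), Gsto1 (0.98), Ephx1 (1.11), Mgst1 (1.44), Gstt1 (1.38), Gsta3 (2.58). Negative were Aldh1a3 (-4.30), Cyp2ab1 (-3.66), Cyp4v3 (-2.46).

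Enzyme genes that the level rule left out had 241 reads in WT vehicle replicate 2 and 395 in KO OXA replicate 4, against 2 to 95 in the other 14 libraries.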

How the results depend on the processing

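Of 47 members called in WT, 37 were called in every fit that left out a library and 35 under every alternative run; the numbers were 29 and 26 of 32 for the interaction, 33 and 29 of 38 for KO against WT under OXA, 0 and 0 of 1 in KO, and 1 and 1 of 1 under vehicle. No fold change of a member given for every library changed sign where it was called. Leaving out each library gave 7 to 10 higher and 33 to 37 lower members in WT, 0 to 9 higher and 0 to 1 lower in KO, 27 to 30 positive and 3 to 4 negative interactions, 32 to 35 higher and 3 to 5 lower for KO against WT under OXA, and 1 and 0 under vehicle. For OXA in KO, with 1 higher and 0 lower members, equal library totals gave 0 higher, DESeq2 gave 6 higher and 1 lower, quantile normalization gave 1 lower, and leaving out WT vehicle replicate 2 and KO OXA replicate 4 gave 10 higher. Equal library totals gave 10 lower members for KO against WT under OXA, where the deposited scaling gave 4, and thinned reads gave 2 negative interactions in place of 4. Equal totals moved the median fold change of all genes by 0.31 in WT, -0.12 in KO, -0.42 in the interaction and -0.39 in KO against WT under OXA, and quantile normalization moved it by -0.12 in WT. With equal totals the calls of Ephx1 were lost in the interaction (adjusted p = 0.081) and under OXA (0.0628), and Gstp1 passed as lower in KO under OXA (-0.84, adjusted p = 0.0427). With quantile normalization Gsto1 lost both calls (adjusted p = 0.202 and 0.0572). The cause of these differences was not tested beyond the settings named. No paired analysis was possible because the replicate numbers are names given in accession order and pair no samples. Members with few reads, such as both glucuronosyltransferases, limit what can be seen, and differences in them may not be detectable at this depth.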
